A study of Mus musculus with 16 samples.

Results

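The genes examined here lie around 45 Mb of mouse chromosome 19 (GRCm38) and comprise Kazald1, the long intergenic RNA gene Gm28578, and the surrounding genes Tlx1, Sfxn3, Pdzd7, Lzts2, Btrc and Dpcd. These 8 members were taken from 53801 genes in the count table. The region was chosen by the genotype contrast itself, because Kazald1 and Gm28578 were both among the largest rises after loss of Trrap. The values of that pair between the genotypes are therefore a description, given with no test, and the question is whether the genes next to them changed as well. For that question the neighbourhood was widened to all 48 other genes of the count table whose annotated start lay within 1 Mb of the start of Kazald1, and 13 further annotated genes there were not analysed.

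RNA was measured in the cortex and the striatum of C57BL6/J-129sv mice at 10 days of age, in 16 libraries with 4 per tissue and genotype. Control mice were Trrap Fl/+ and Trrap-FBΔ mice were Trrap Fl/Fl, and mice of both groups carried the Camk2-Cre transgene, so the controls also held a floxed allele next to Cre. The promoter of the transgene acts in excitatory neurons of the forebrain, while RNA came from whole tissue, in which other cells keep their alleles. The 16 libraries came from 9 mice, 7 of which gave both tissues. TRRAP is an adaptor subunit of several histone acetyltransferase complexes. Between 28743866 and 48761429 counts were assigned to genes per library. Levels are given as CPM, counts scaled to a common library total. Trrap, counted over the whole gene and in all cells, lay at 136 to 173 CPM in control cortices and 121 to 146 in Trrap-FBΔ cortices, and at 140 to 151 and 135 to 148 in the striata. The groups overlapped in both tissues, and the change of Trrap did not pass the test in the cortex (log2 fold change -0.18, adjusted p = 0.083, edgeR quasi-likelihood test) or the striatum (-0.044, adjusted p = 0.52). In the cortex it passed without a filter on low counts (adjusted p = 0.046), with all libraries in one fit (adjusted p = 0.047) and without control mouse 63 (log2 fold change -0.23). The change was smaller without control mouse 55 (-0.12, adjusted p = 0.2). It was also smaller when Trrap-FBΔ mouse 57 was left out (-0.13, adjusted p = 0.21), and it missed the threshold in all alternatives other than those 3.

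Kazald1 encodes a secreted protein with a Kazal-type domain and a domain related to the insulin-like growth factor (IGF) binding proteins, and is best known from bone. Tlx1 encodes a homeobox transcription factor needed for the spleen and for neurons of the hindbrain and spinal cord. Sfxn3 encodes a sideroflexin of the inner mitochondrial membrane, Pdzd7 a scaffold of the Usher protein complex of hair cells, and Lzts2 a leucine zipper protein that restrains nuclear β-catenin. Btrc encodes β-TrCP, the F-box protein by which the SCF ubiquitin ligase binds β-catenin and other phosphorylated substrates. Dpcd was named for its deletion in a mouse model of primary ciliary dyskinesia. Gm28578 is annotated only as a long intergenic RNA.

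Kazald1 (ENSMUSG00000025213) occupies 45075241 to 45079289 on the plus strand, and Gm28578 (ENSMUSG00000100417) occupies 45300455 to 45338435 on the minus strand. The start of Gm28578 lies 263 kb downstream of that of Kazald1. Upstream of Kazald1 start Sfxn3 at -27.7 kb, Pdzd7 at -29.5 kb and Lzts2 at -60.8 kb. Downstream start Tlx1 at 75.4 kb, Btrc at 288.5 kb, and Dpcd at 485 kb. Pdzd7 and Lzts2 lie on opposite strands and share 206 exonic bases. Dpcd shares 676 exonic bases with Fbxw4 on the other strand. The authors counted reads by strand, so such pairs were kept apart. A long intergenic RNA annotated on the strand of Kazald1, AC132957.1, spans the whole gene from 45058841 to 45110342 but shares 0 exonic bases with it, and was not analysed here. None of the 51-base words of the Kazald1 transcripts occurred in another annotated gene (0 of 1671), and 0.486% of those of Gm28578 did.

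Promoter sequence, taken from RefSeq on GRCm38.p6 as 250 bases before to 50 after a start site, was matched for 7 of the 8 members, with no entry for Btrc. The sequences of the risen pair and of the neighbours Sfxn3 and Pdzd7 are shown, since Sfxn3 and Pdzd7 start close to each other on opposite strands and had log2 fold changes of opposite sign in the striatum. Capitals mark the GC box, searched as GGGCGG or CCGCCC on both strands. Kazald1, with the first of its 2 entries, is read from chr19:45074991-45075290 on the plus strand, Gm28578 from chr19:45330698-45330997 on the minus strand, Sfxn3 from chr19:45047326-45047625 on the plus strand and Pdzd7 from chr19:45045723-45046022 on the minus strand. The RefSeq start of Gm28578 is 7688 bases from the annotated start used for distances.
Kazald1: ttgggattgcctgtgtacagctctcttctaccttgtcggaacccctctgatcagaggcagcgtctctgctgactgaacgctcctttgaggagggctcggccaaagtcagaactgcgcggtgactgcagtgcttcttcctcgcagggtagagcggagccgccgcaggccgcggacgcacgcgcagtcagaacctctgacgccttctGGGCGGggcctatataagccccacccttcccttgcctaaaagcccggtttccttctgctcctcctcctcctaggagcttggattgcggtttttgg
Gm28578: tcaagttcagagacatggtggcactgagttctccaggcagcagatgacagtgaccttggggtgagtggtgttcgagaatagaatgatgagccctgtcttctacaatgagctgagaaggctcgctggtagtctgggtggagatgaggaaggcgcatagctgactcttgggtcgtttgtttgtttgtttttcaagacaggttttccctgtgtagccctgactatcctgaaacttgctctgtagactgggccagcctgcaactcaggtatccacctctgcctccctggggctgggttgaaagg
Sfxn3: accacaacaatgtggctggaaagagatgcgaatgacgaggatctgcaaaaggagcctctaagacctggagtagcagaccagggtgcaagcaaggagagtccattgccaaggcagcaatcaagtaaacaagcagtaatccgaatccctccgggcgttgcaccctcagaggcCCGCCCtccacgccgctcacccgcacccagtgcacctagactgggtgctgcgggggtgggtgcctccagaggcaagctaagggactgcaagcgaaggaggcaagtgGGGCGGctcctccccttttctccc
Pdzd7: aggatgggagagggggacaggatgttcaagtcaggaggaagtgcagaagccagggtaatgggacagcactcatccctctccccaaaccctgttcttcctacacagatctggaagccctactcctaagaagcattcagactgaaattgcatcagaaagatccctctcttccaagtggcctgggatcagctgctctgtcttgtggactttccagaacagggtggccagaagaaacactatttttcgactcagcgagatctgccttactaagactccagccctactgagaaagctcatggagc
The promoter of Kazald1 held 180 G or C among 300 bases, with 19 CG pairs and 1 GC box, and that of Gm28578 held 156 G or C with 4 CG pairs and 0 GC boxes. Over 32544 promoters the median G and C content was 53.0% (quartiles 46.0% and 61.7%), the median number of CG pairs was 7 (quartiles 3 and 20), and 35.9% held a GC box. Both promoters lay between the quartiles in G and C and in CG pairs. The Sfxn3 promoter held 2 GC boxes and that of Pdzd7 held 0. The E-box letters CACGTG, present in 7.17% of all promoters, occurred in none of the 10 promoter entries of the members. The same held for the TATA box letters TATAAA, present in 13.6%. Only these exact letters were searched, so a variant such as tatataag in the printed Kazald1 promoter was not counted. A match is a description of these letters only.

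The members spanned a wide range of levels. Per length, as CPM per kb of exons, control cortices gave 42.3 ± 2.08 (SD, n = 4) for Sfxn3, 11.3 ± 0.655 for Dpcd, 6.50 ± 0.161 for Lzts2, 4.35 ± 0.0769 for Btrc, 1.03 ± 0.143 for Pdzd7, 0.354 ± 0.065 for Kazald1 and 0.0976 ± 0.0534 for Gm28578. Tlx1 had 0 counts in all 4 control cortices, where a count of 0 allows up to 3 counts per library from counting error alone. In control cortices none of these neighbours in the order overlapped in CPM per kb. The order of Kazald1 and Pdzd7 was turned in the Trrap-FBΔ cortices, where Kazald1 lay at 1.20 to 1.69 CPM per kb and Pdzd7 at 0.832 to 0.941. In control striata Kazald1 reached 0.843 and Pdzd7 began at 0.83 CPM per kb, so that they overlapped there, and they overlapped again in the Trrap-FBΔ striata. Lzts2 and Btrc overlapped only in the Trrap-FBΔ cortices, at 4.29 to 6.14 and 4.02 to 5.08 CPM per kb. The plot of levels per length shows Sfxn3 at the top and Kazald1 and Gm28578 near the bottom of the order in controls.

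**Figure D1:**
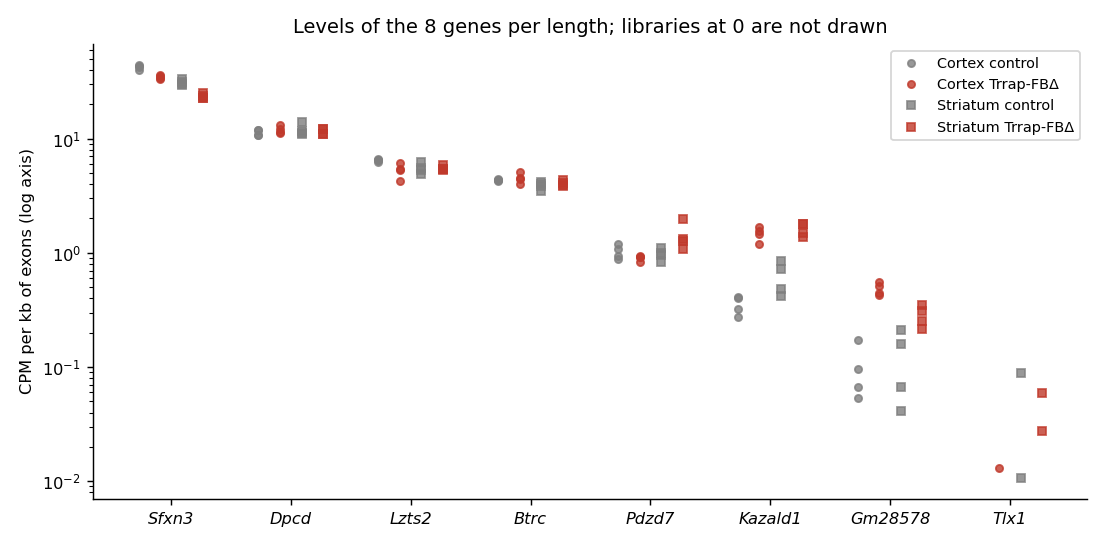
Levels of the 8 members as CPM per kb of exons (log axis), one point per library, with 4 libraries in each of the 4 groups. Sfxn3 is highest, with 42.3 CPM per kb on average in control cortices, and Gm28578 averages 0.0976 there. Libraries with 0 counts, found for Tlx1, are not drawn.

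Kazald1 was higher in all Trrap-FBΔ libraries than in any control library of the same tissue, on the scale of normalized CPM. In the control cortices it had 0.695, 0.544, 0.675 and 0.465 CPM in mice 55, 58, 63 and 64. In the Trrap-FBΔ cortices it had 2.83, 2.01, 2.64 and 2.48 CPM in mice 57, 59, 60 and 61. The lowest Trrap-FBΔ cortex thus lay well above the highest control. In the control striata the values were 1.42, 0.813, 0.710 and 1.21 CPM in mice 58, 63, 64 and 65, and in the Trrap-FBΔ striata 2.498, 2.98, 2.29 and 2.999 CPM in mice 57, 59, 60 and 61. These levels rested on 18 to 26 counts per control cortex, 72 to 120 per Trrap-FBΔ cortex, 27 to 53 per control striatum and 114 to 153 per Trrap-FBΔ striatum. The log2 fold change was 2.08 (SE 0.18) in the cortex and 1.38 (SE 0.20) in the striatum. In whole tissue a change in the number of cells of a type and a change in RNA per cell cannot be told apart.

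Gm28578 was also separated between the genotypes, but with a wider spread among the controls. In the control cortices it had 0.329, 1.07, 0.597 and 0.414 CPM in mice 55, 58, 63 and 64, and in the Trrap-FBΔ cortices 2.76, 3.43, 3.19 and 2.63 CPM in mice 57, 59, 60 and 61. In the control striata it had 0.252, 1.29, 0.973 and 0.409 CPM in mice 58, 63, 64 and 65, and in the Trrap-FBΔ striata 2.17, 1.34, 1.89 and 1.57 CPM in mice 57, 59, 60 and 61. The highest control striatum, of mouse 63, came close to the lowest Trrap-FBΔ striatum, of mouse 59. Mouse 58 gave the highest control cortex and the lowest control striatum. The counts behind these values were 9 to 45, 117 to 126, 8 to 54 and 53 to 100 per library in the 4 groups. The log2 fold change was 2.26 (SE 0.27) in the cortex and 1.23 (SE 0.38) in the striatum.

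The genotype groups differed in their share of females, so the pair was also read within each sex. Kazald1 lay at 0.675 to 0.695 CPM in 2 female control cortices and 2.01 to 2.83 in 3 female Trrap-FBΔ cortices, and at 0.465 to 0.544 in 2 male controls and 2.64 in 1 male Trrap-FBΔ cortex. In the striatum it had 0.813 CPM in 1 female control and 2.498 to 2.999 in 3 female Trrap-FBΔ mice, with 0.710 to 1.42 in 3 male controls and 2.29 in 1 male Trrap-FBΔ mouse. Gm28578 in the striatum of females had 1.29 CPM in 1 control and 1.34 to 2.17 CPM in 3 Trrap-FBΔ mice. In males it had 0.252 to 0.973 CPM in 3 controls and 1.89 CPM in 1 Trrap-FBΔ striatum. Gm28578 in the cortex had 0.329 to 0.597 CPM in female controls and 2.63 to 3.43 CPM in female Trrap-FBΔ mice, and 0.414 to 1.07 CPM in male controls and 3.19 CPM in the male Trrap-FBΔ mouse. These values are a description of the libraries that chose the region, with 1 library in several arms and no test.

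**Figure D2:**
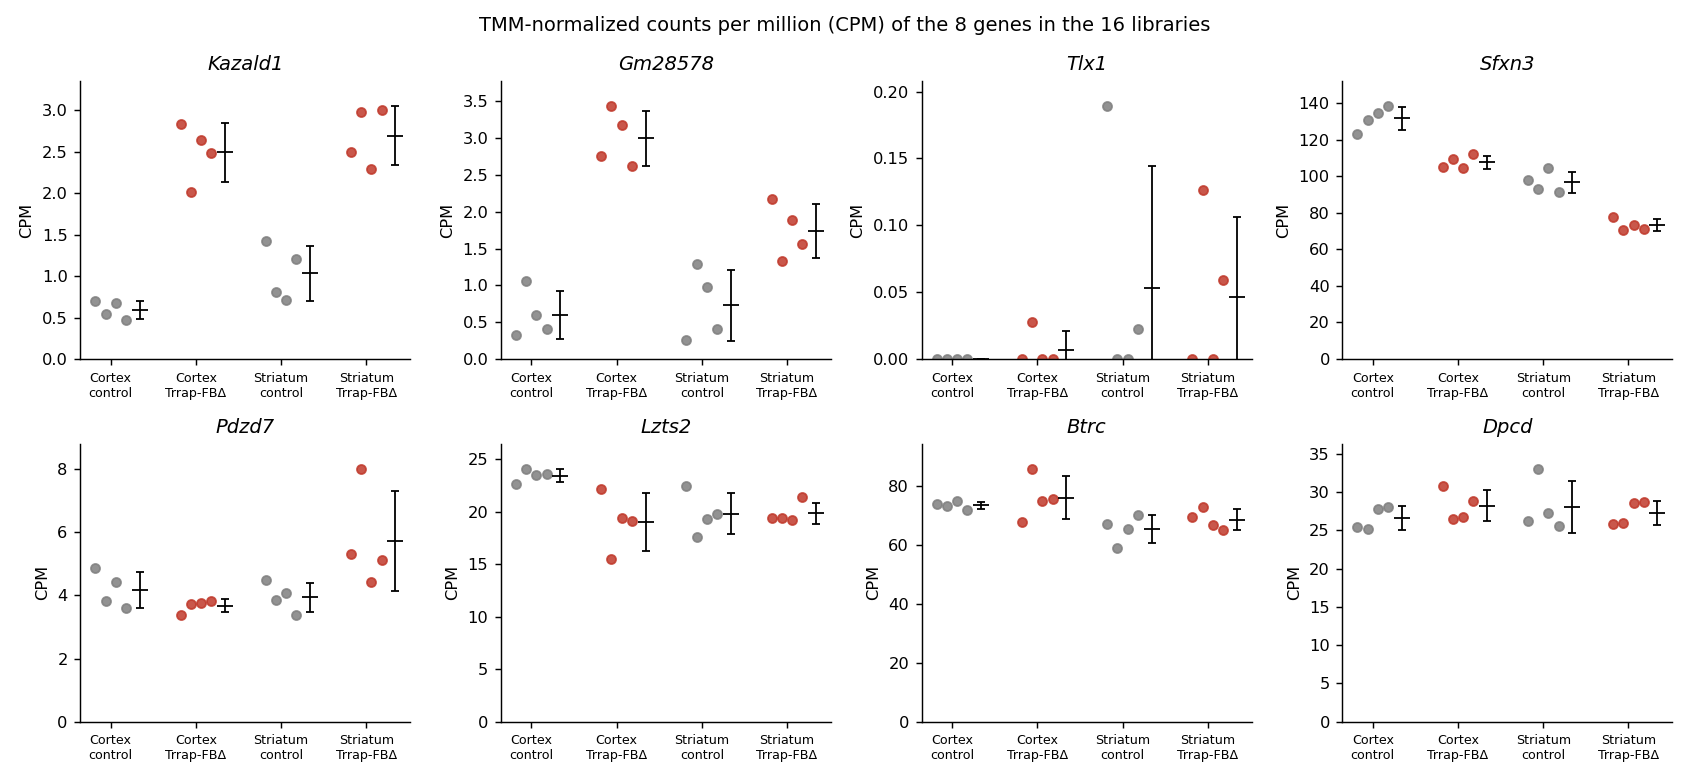
Normalized CPM of the 8 members in the cortex and the striatum, with 1 point per library in order of the mouse number, grey for controls and red for Trrap-FBΔ, and the mean ± SD of 4 libraries in black. Kazald1 and Gm28578 are separated between genotypes in both tissues, Sfxn3 is lower in Trrap-FBΔ in both, and Btrc and Dpcd overlap.

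Of the genes closest to Kazald1, Sfxn3 changed in the opposite direction. In the cortex Sfxn3 (ENSMUSG00000025212) had 123, 131, 135 and 138 CPM in the controls and 105, 109, 104 and 112 CPM in the Trrap-FBΔ mice. In the striatum it had 97.8, 93.1, 104 and 91.1 CPM in the controls and 77.9, 70.7, 73.1 and 71 CPM in the Trrap-FBΔ mice. The groups did not overlap in either tissue. The log2 fold change of Sfxn3 was -0.29 (SE 0.046, adjusted p = 0.00073) in the cortex and -0.40 (SE 0.055, adjusted p = 0.00071) in the striatum, by the edgeR quasi-likelihood test with Benjamini-Hochberg adjustment over all genes tested. These calls were kept under every alternative that was run.

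Pdzd7 (ENSMUSG00000074818), which starts close to Sfxn3 on the other strand, rose in the striatum by a call that several single libraries decided. It had 4.47, 3.85, 4.08 and 3.36 CPM in the control striata and 5.32, 8.00, 4.42 and 5.14 CPM in the Trrap-FBΔ striata. Mouse 59 was highest, and the Trrap-FBΔ striatum of mouse 60 lay below the highest control. The log2 fold change of Pdzd7 was 0.54 (SE 0.18, adjusted p = 0.042, edgeR) in the striatum and -0.18 (SE 0.12, adjusted p = 0.26) in the cortex. The difference between the tissues was 0.71 and did not pass the test (adjusted p = 0.17). The striatal call was lost with sex as a covariate (0.41, adjusted p = 0.18), with limma-voom (adjusted p = 0.055), and without Trrap-FBΔ mouse 57 (0.57), 59 (0.34) or 61 (0.59) or control mouse 63 (0.53), 64 (0.56) or 65 (0.46).

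Lzts2 (ENSMUSG00000035342) fell in the cortex. It had 22.7, 24.1, 23.5 and 23.6 CPM in the control cortices and 22.1, 15.5, 19.4 and 19.1 CPM in the Trrap-FBΔ cortices. The groups did not overlap, although Trrap-FBΔ mouse 57 came close to the controls. The log2 fold change of Lzts2 was -0.30 (SE 0.092, adjusted p = 0.026, edgeR) in the cortex and 0.0053 (SE 0.076, adjusted p = 0.97) in the striatum, where the values were 17.6 to 22.4 and 19.2 to 21.4 CPM. The call in the cortex was lost without control mouse 58 (-0.29, adjusted p = 0.06) or 64 (-0.30, adjusted p = 0.057), and without Trrap-FBΔ mouse 60 (-0.30, adjusted p = 0.056) or 61 (-0.29, adjusted p = 0.059).

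Beyond Gm28578, Btrc and Dpcd did not pass the test in either tissue. Btrc (ENSMUSG00000025217) had 71.9 to 75 CPM in control and 68 to 85.9 CPM in Trrap-FBΔ cortices, and 59.1 to 70.2 and 65.2 to 73.2 CPM in the striata. For the cortex the log2 fold change of Btrc came to 0.050 (95% interval -0.085 to 0.19, adjusted p = 0.56, edgeR), and for the striatum to 0.070 (-0.064 to 0.20, adjusted p = 0.41). Dpcd (ENSMUSG00000041035) had 25.1 to 28.1 and 26.6 to 30.8 CPM in the cortices, and 25.6 to 33 and 25.8 to 28.7 CPM in the striata. For the cortex the log2 fold change of Dpcd came to 0.084 (-0.063 to 0.23, adjusted p = 0.36, edgeR), and for the striatum to -0.040 (-0.23 to 0.15, adjusted p = 0.75). The intervals of both genes lie below the log2 fold changes of Kazald1 and Gm28578. That pair was chosen for its rise, so this gap is in part set by the choice and is a description only.

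Tlx1 (ENSMUSG00000025215), which starts between Kazald1 and Gm28578, was barely detected. The 16 libraries held 16 counts of it in all, with 1 in the Trrap-FBΔ cortex of mouse 59, 6 and 1 in the control striata of mice 58 and 65, and 5 and 3 in the Trrap-FBΔ striata of mice 59 and 61. It was not tested, and 7 of the 8 members passed the filter on low counts in each tissue. The remaining genes next to the pair were also at or near 0. The antisense genes Tlx1os and 1700016H03Rik had 0 counts in all libraries, and Gm29594, which lies inside Gm28578 on the other strand, had 1, 5, 3 and 3 counts in the 4 groups. The pseudogene Gm6807 inside Btrc had 2, 2, 1 and 2 counts.

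Neighbours changed in both directions in both tissues. In the cortex 27 neighbours were tested, of which 6 rose (22.2%) and 6 fell (22.2%), beside 15.7% of all 18268 tested genes that rose and 17.6% that fell. In the striatum 29 were tested, of which 8 rose (27.6%) and 5 fell (17.2%), beside 14.4% and 15.8% of 18872 genes. With upper-quartile normalization, or with all libraries in one fit, 9 rose and 4 fell in the striatum. With DESeq2, 9 rose and 5 fell there. Fewer striatal neighbours were called with sex as a covariate (6 rose and 3 fell) and with limma-voom (7 rose and 4 fell). The number of calls over all genes was also lower with sex as a covariate. The median log2 fold change of the tested neighbours came to -0.016 for the cortex and 0.021 for the striatum, beside 0.0010 and -0.0055 for all genes. The groups did not overlap for 12 neighbours in the cortex, 5 higher and 7 lower, and for 10 in the striatum, 6 higher and 4 lower, while 32.7% and 31.6% of all genes had no overlap. A further 19 neighbours were tested in neither tissue, with at most 130 counts over the 16 libraries, and 5 of these had 0 counts. The call count in the striatum fell to 7, 8 and 8 without Trrap-FBΔ mouse 57, 59 or 60, and that over all genes fell from 5704 to 4205, 4443 and 4359.

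The neighbours were split by distance, with too few in the nearer classes to read their shares against those of all genes. Within 100 kb, 6 neighbours were tested, and 0 rose and 3 fell in the cortex, with a median log2 fold change of -0.23, beside 15.7% of all genes that rose and 17.6% that fell. The 3 were Sfxn3, Lzts2 and Sema4g, a semaphorin gene, with a log2 fold change of -0.33 (adjusted p = 0.0067, edgeR) in the cortex and -0.12 (adjusted p = 0.16) in the striatum. In the striatum 1 of the 6, Pdzd7, rose and 1, Sfxn3, fell, beside 14.4% and 15.8% of all genes. Between 100 and 300 kb, 2 neighbours were tested and neither passed the test in either tissue. From 300 kb to 1 Mb, 6 of 19 rose and 3 fell in the cortex, and 7 of 21 rose and 4 fell in the striatum. In the plot of change against distance, no tested neighbour within 0.5 Mb lay above a log2 fold change of 1 in either tissue. Kazald1 and Gm28578, which were chosen for their rise, did.

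**Figure D3:**
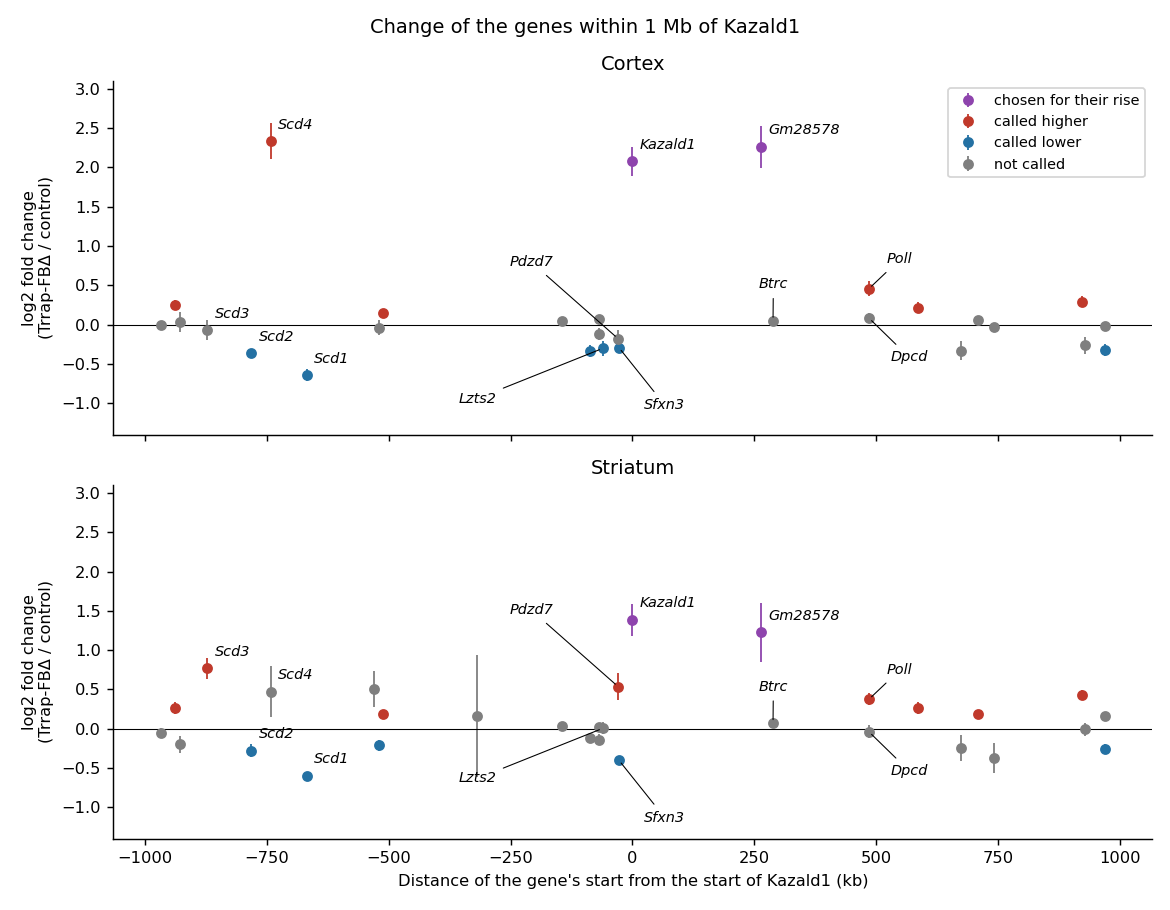
Log2 fold change (Trrap-FBΔ over control, edgeR, bars are the SE) of each tested gene within 1 Mb against the distance of its start from that of Kazald1 in kb, in the cortex (top) and the striatum (bottom). Kazald1 and Gm28578, chosen for their rise, are purple, and Scd4 at -742 kb is the other gene above a log2 fold change of 1, in the cortex. Called genes have an adjusted p under 0.05.

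In the cortex 1 neighbour changed by over 2-fold, as did 2.1% of all genes, and in the striatum 0 did, beside 2.21% of all genes. This gene was Scd4 (ENSMUSG00000050195, 44333092 to 44346743), at -742 kb from Kazald1 in a cluster of 4 genes for stearoyl-CoA desaturases, which place the first double bond in saturated fatty acids. Scd4 had 0.183, 0.284, 0.312 and 0.465 CPM in the control cortices and 1.89, 1.62, 1.54 and 1.42 CPM in the Trrap-FBΔ cortices, with no overlap. In the striatum it had 0.378, 0.263, 0.184 and 0.318 CPM in controls and 0.543, 0.202, 0.362 and 0.451 CPM in Trrap-FBΔ mice, and the groups overlapped. The log2 fold change of Scd4 was 2.33 (SE 0.23, adjusted p = 4.9e-05, edgeR) in the cortex and 0.47 (SE 0.33, adjusted p = 0.30) in the striatum. The difference between the tissues was -1.86 and missed the threshold (adjusted p = 0.058). It passed without a filter on low counts (-1.85, adjusted p = 0.032) and without control cortex 64 (-2.12, adjusted p = 0.04).

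The other desaturase genes of the cluster did not follow Scd4. Scd1, at -667 kb, fell in both tissues, from 180 to 203 CPM in control cortices to 108 to 141 CPM in Trrap-FBΔ cortices, and from 194 to 217 to 128 to 137 CPM in the striata. Scd1 had a log2 fold change of -0.64 (SE 0.079, adjusted p = 0.00018, edgeR) in the cortex and of -0.60 (SE 0.049, adjusted p = 8.4e-05) in the striatum. Scd2, the most abundant of them, fell from 1508 to 1602 CPM in control cortices to 1180 to 1237 CPM in Trrap-FBΔ cortices (log2 fold change -0.36, adjusted p = 0.00076, edgeR). In the striatum Scd2 fell by 0.28 on the log2 scale (adjusted p = 0.035, edgeR), with groups that overlapped. Scd3 lay at 2.03 to 2.41 and 1.95 to 2.46 CPM in the cortices (log2 fold change -0.070, adjusted p = 0.71, edgeR). In the striatum Scd3 rose, with 1.55 to 2.41 CPM in controls and 3.20 to 3.53 CPM in Trrap-FBΔ mice (0.77, adjusted p = 0.0026). The difference of Scd3 between the tissues was 0.84 (adjusted p = 0.056). It passed with upper-quartile normalization (adjusted p = 0.047), without a filter (adjusted p = 0.044), with DESeq2 (adjusted p = 0.0074) and without Trrap-FBΔ cortex 61 (0.93) or control striatum 65 (0.95). The striatal call of Scd2 was lost with sex as a covariate (-0.23) and without Trrap-FBΔ mouse 57 (-0.27), 59 (-0.29) or 60 (-0.25) or control mouse 58 (-0.22), 64 (-0.29) or 65 (-0.26). Of the 51-base words of the transcripts, 4.44%, 3.85%, 6.32% and 5.27% of those of Scd1 to Scd4 also occurred in other genes.

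**Figure D4:**
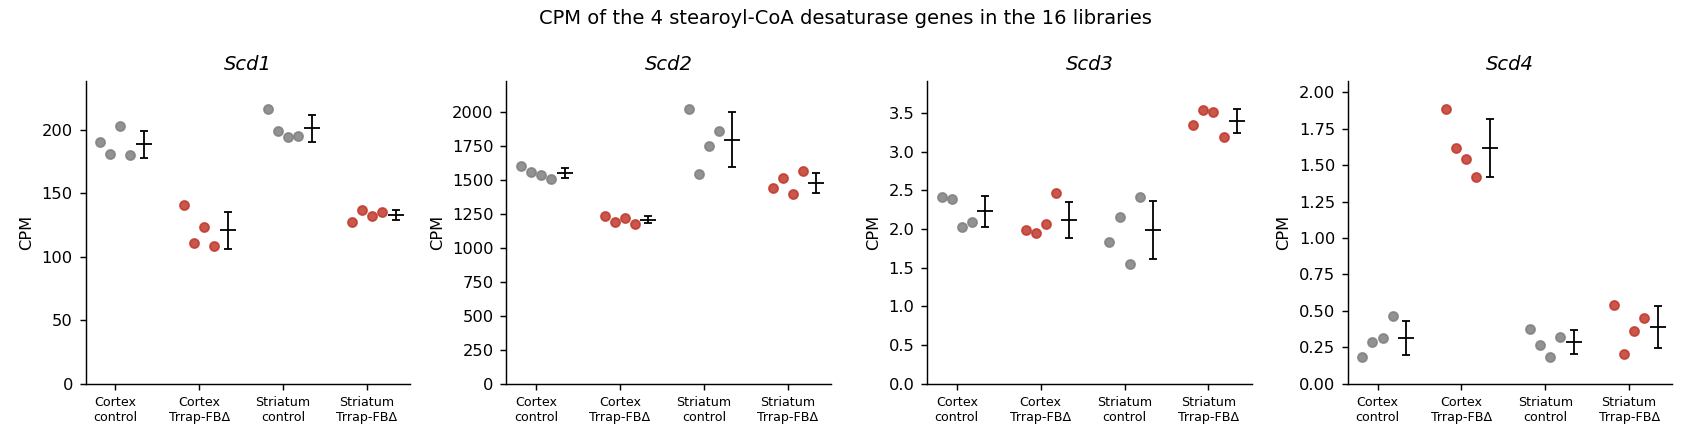
Normalized CPM of Scd1, Scd2, Scd3 and Scd4 by tissue and genotype, with 1 point per library in order of the mouse number, grey for controls and red for Trrap-FBΔ, and the mean ± SD of 4 libraries in black. Scd1 is lower in Trrap-FBΔ in both tissues, Scd4 is higher in the cortex (1.42 to 1.89 against 0.183 to 0.465 CPM) and Scd3 in the striatum (3.20 to 3.53 against 1.55 to 2.41 CPM).

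Of 27 neighbours tested in both tissues, 9 passed the test in both, 5 higher and 4 lower in both. Of the 17938 genes tested in both tissues, 19.1% passed in both, 8.47% higher in both and 10.5% lower in both. The 2 tissues share mice. Those lower in both were Sfxn3, Scd1, Scd2 and Pprc1, a coactivator related to PGC-1, with log2 fold changes of Pprc1 of -0.32 in the cortex and -0.26 in the striatum. Those higher in both were Poll, Cwf19l1, Hif1an, Fbxw4 and Armh3. Poll, the gene of DNA polymerase λ, which starts next to Dpcd, had 4.83, 6.51, 6.03 and 6.33 CPM in the control and 8.85, 7.90, 7.73 and 8.24 CPM in the Trrap-FBΔ cortices. Poll had a log2 fold change of 0.46 (SE 0.098, adjusted p = 0.0043, edgeR) in the cortex and of 0.38 (SE 0.078, adjusted p = 0.0055) in the striatum, with no overlap in either. Armh3 rose by 0.29 and 0.43 on the log2 scale, Cwf19l1 by 0.25 and 0.26, Fbxw4, which encodes an F-box protein, by 0.22 and 0.26, and Hif1an, which encodes an asparagine hydroxylase that restrains HIF-1, by 0.15 and 0.19.

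Several of these smaller calls depended on single libraries or settings. Hif1an in the cortex was lost without control mouse 58, 63 or 64 or Trrap-FBΔ mouse 59, 60 or 61 (0.12 to 0.17) and with sex as a covariate (0.13), without a filter (adjusted p = 0.07) and with limma-voom (adjusted p = 0.051), and in the striatum without Trrap-FBΔ mouse 59 (0.17). Fbxw4 was lost in the cortex without control mouse 55, 63 or 64 or Trrap-FBΔ mouse 57 or 61 (0.18 to 0.24), and in the striatum without Trrap-FBΔ mouse 57, 60 or 61 or control mouse 65 (0.22 to 0.26) and with sex as a covariate (0.28). Cwf19l1 was lost in the striatum without Trrap-FBΔ mouse 57 or 60 or control mouse 58 (0.23 to 0.26). Pprc1 in the striatum was lost with sex as a covariate (-0.23).

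The difference in the effect of genotype between the tissues passed the test in 0 of 30 tested neighbours, beside 0.437% of 19438 genes, by edgeR. DESeq2 called 1 neighbour, beside 422 of 16270 genes. For Kazald1 the striatal minus the cortical log2 fold change was -0.69 and for Gm28578 it was -1.03, given as values only.

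Between the tissues, the values of Kazald1 and Gm28578 come from the libraries whose levels chose the region and are given with no test. The log2 difference of striatum over cortex for Kazald1 was 0.80 (SE 0.26) in controls, with no overlap, and 0.11 (SE 0.14) in Trrap-FBΔ mice, with overlap. For Gm28578 it was -0.78 (SE 0.15) in Trrap-FBΔ mice, with no overlap, and 0.26 (SE 0.49) in controls, with overlap. Without the control striatum of mouse 63 the difference of Gm28578 in controls was -0.16.

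The other members were tested in this contrast. Sfxn3 was lower in the striatum in both genotypes, with a log2 difference of -0.44 (adjusted p = 0.00019, edgeR) in controls and -0.56 (adjusted p = 5.3e-07) in Trrap-FBΔ mice. Pdzd7 was higher in the striatum of Trrap-FBΔ mice (0.63, adjusted p = 0.0055, edgeR) and not past the test in controls (-0.078, adjusted p = 0.68). Lzts2 was lower in the control striata (-0.24, adjusted p = 0.028, edgeR), and this call was lost without cortex 58 or 64 or striatum 63, 64 or 65 (-0.19 to -0.24). Btrc was lower in the control striata by a narrow call (-0.16, adjusted p = 0.048, edgeR), lost with the mouse as a block (-0.20, adjusted p = 0.055), with upper-quartile normalization (-0.11), without a filter (adjusted p = 0.085) and without each of 7 of the 8 control libraries (-0.11 to -0.18). In Trrap-FBΔ mice Btrc had -0.15 (adjusted p = 0.068, edgeR), which passed with the block (adjusted p = 0.037), without cortex 57 (-0.20) and without striatum 59 (-0.18). Dpcd did not pass in controls (0.076, adjusted p = 0.50, edgeR) or Trrap-FBΔ mice (-0.051, adjusted p = 0.53).

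Of all neighbours, 1 was higher and 7 were lower in the striatum of 28 tested in controls, beside 20.3% of all genes that were higher and 20.1% lower. With the mouse as a block these counts were 1 and 4, and with upper-quartile normalization or without a filter on low counts 2 and 4. In Trrap-FBΔ mice 7 were higher and 6 lower of 29, beside 27.4% and 27.4% of all genes. The count in controls of 8 became 4 without cortex 58, 4 without cortex 64 and 5 without striatum 65. The label of the tissue was checked with marker genes. The summed level of 6 excitatory neuron markers was 1444 to 1837 CPM in control cortices and 631 to 787 CPM in control striata. That of 6 markers of striatal projection neurons overlapped, at 196 to 537 CPM in control cortices and 102 to 795 CPM in control striata. These markers thus did not set the tissues apart, and the lowest control striatum lay below all control cortices. The contrasts that use the striatum carry this limit, and how evenly the striatum was dissected was not tested.

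Markers of several other cell types moved with the genotype. Beside the counts below, 17.6% of all genes fell and 15.7% rose in the cortex, and 15.8% fell and 14.4% rose in the striatum. Of 6 microglial markers 6 fell in cortices and 5 in striata, with summed levels of 257 to 289 against 182 to 231 CPM and of 205 to 250 against 163 to 179 CPM. Of 6 endothelial and mural markers 6 and 3 fell, with sums of 365 to 446 against 281 to 347 CPM and 381 to 453 against 281 to 341 CPM. Of 5 markers of oligodendrocyte precursors 5 and 3 fell, and of 6 of mature oligodendrocytes 5 and 0. Excitatory neuron markers summed to 1444 to 1837 against 1582 to 1719 CPM in the cortices, where 2 of 6 fell. In the striata they summed to 631 to 787 against 470 to 537 CPM, and 4 of 6 fell. The sum of 6 astrocyte markers was lower with no overlap in the Trrap-FBΔ striata (3404 to 3714 against 3801 to 4100 CPM). Taken singly, 2 of these markers rose and 1 fell in the striata, and 2 rose and 2 fell in the cortices. None of the 11 marker lists had a sum above all controls in the Trrap-FBΔ libraries of a tissue, and no marker was at 0 in all libraries. The part of these cells in the changes of the members was not tested.

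The relatives and partners of the members were read from lists. In the list around Kazald1, of IGF binding proteins, IGF receptors and ligands and related proteases, 19 of 21 genes were tested, and 3 rose and 6 fell in the cortex and 3 rose and 4 fell in the striatum. Over all genes 15.7% rose and 17.6% fell in the cortex, and 14.4% and 15.8% in the striatum, which are also the shares to set beside the lists that follow. The median log2 fold change of the list was 0.030 and -0.11. Igfbp2 fell in both tissues (log2 fold change -0.48 and -0.23), as did the ligand Igf1 (-0.20 and -0.30), while Igfbp3 rose in the cortex (0.28) and fell in the striatum (-0.22).

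Among 10 tested relatives of the other members, 1 rose and 2 fell in the cortex and 2 rose and 1 fell in the striatum, which is near the share of all genes called (33.3% and 30.2%). The sideroflexins Sfxn1, Sfxn2, Sfxn4 and Sfxn5 did not pass the test in either tissue, with log2 fold changes of -0.016 to 0.091 in the cortex, beside the fall of Sfxn3. N4bp3, a relative of Lzts2, fell in both tissues (-0.41 and -0.33). Fbxw11, the close relative of Btrc, rose in the cortex (0.15, adjusted p = 0.026, edgeR) and had 0.11 (adjusted p = 0.087) in the striatum. Fbxw11, which passed in a single tissue, was named after its values were seen.

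Of 14 SCF subunits and substrates of Btrc, 4 rose and 3 fell in the cortex and 3 rose and 2 fell in the striatum, with medians of 0.040 and 0.024, beside 33.3% and 30.2% of all genes that passed in either direction. The ring subunit gene Rbx1 (0.23 and 0.15) and the clock gene Per1 (0.34 and 0.41) rose in both tissues, and Wee1, the kinase that holds back mitosis (-0.69 and -0.72), and the stress transcription factor gene Atf4 (-0.37 and -0.33) fell in both.

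The genes whose pattern was most like that of Kazald1 were found by the Pearson correlation of log2 CPM, as deviations from the tissue mean, over 16 libraries and 17937 genes. This is a description, since the libraries share the 2 genotypes and any gene that differs between them correlates. Most like Kazald1 were Cpxm2 (r = 0.97), Cmc2 (0.97), Gm10432 (0.97), Dnajc12 (0.96) and Zpbp (0.95). Most like Gm28578 were Zzz3 (0.97), Iqck (0.96), Dcbld1 (0.96), Cbs (0.94) and Fam53a (0.94). None of these 10 genes lies on chromosome 19. Kazald1 and Gm28578 had r = 0.735 with each other, so that Gm28578 ranked 1999 for Kazald1 and Kazald1 ranked 1611 for Gm28578. Sfxn3 had r = -0.903 with Kazald1.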

How the data were processed

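Libraries of polyadenylated RNA from P10 cortex and striatum were sequenced as strand-specific single-end reads. The authors used bcl2fastq 1.8.4, aligned to GRCm38 with STAR 2.5.4b and assigned uniquely mapped reads to Ensembl genes with featureCounts 1.5.0. They deposited raw counts, with no normalization or filter. They tested each tissue with DESeq2. Reads shared by similar genes are lost by unique mapping.

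Here, counts were analysed in R 4.3.3 with edgeR 4.0.16 (filterByExpr, TMM, quasi-likelihood test, Benjamini-Hochberg adjustment over all genes, threshold 0.05), per tissue for the genotype, per genotype for the tissue, and over 16 libraries for the difference of the genotype effect between tissues. DESeq2 1.42.0, limma 3.58.1 (voom), other normalizations, no filter, sex as a covariate, narrower and wider windows, each library left out, and the mouse as a block were alternatives. Standard errors are those implied by the F statistic, and 95% intervals use its degrees of freedom. CPM used TMM over all 16 libraries. Per-length levels divide CPM by the exonic length. Coordinates and symbols came from GENCODE vM21 on GRCm38, whose edition differs from the authors' Ensembl release. Dpcd was linked by its gene identifier. Precision is limited by 4 mice per group and, for Kazald1, Gm28578 and Scd4, by few counts. The total was 28743866 to 48761429 counts per library.

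Cortex and striatum libraries that carry the same number were from the same animal, per the labels. Their deviations from group means correlated with r of 0.0845 to 0.244 in 7 pairs, 6 of them over 0.1. In 25 pairs of different mice r was -0.173 to 0.123, which overlaps that range. In Trrap-FBΔ mice each same-mouse pair (0.134 to 0.244) lay above every pair of different mice (at most 0.0652). In controls, mice 58 (0.112) and 64 (0.0845) lay below the pair of cortex 55 and striatum 65 (0.123). The correlation thus does not establish the pairing of mice 58 and 64, which rests on the labels. On simulated data with 200 changed genes at a log2 fold change of 1, 99.5% were recovered in the cortex contrast over 18268 genes and 96% in the striatum contrast over 18872, and 8.29% and 4% of the calls were false. The changed genes were drawn only from genes above a floor on the mean count. Recovery of smaller changes, or of genes with fewer counts, was not simulated.

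The members, lists and tests were chosen with earlier results of these data known. Named besides the members are Trrap, neighbours called in both tissues or among the 5 smallest p of a tissue, genes next to or overlapping members, list genes called in both tissues, and the 5 genes most like Kazald1 or Gm28578. Sema4g, the single-tissue list genes and the sideroflexins were named after their values were seen. The list of protein partners of Pdzd7 is not reported here. Kazald1 and Gm28578 are given with no test in any contrast, since the same libraries chose them. Their test between tissues had been planned and was dropped for this reason. The split by distance and the reading within each sex were added after seeing the data.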

Additional observations from a re-analysis of the deposited data

Results flagged for a closer look

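In 4 of 72 groups of 4 libraries, 1 library stood apart from the other 3 by Dixon's criterion, and chance flags about 1 group in 20. Pdzd7 in the Trrap-FBΔ cortex of mouse 57 had 3.38 CPM, against 3.74 to 3.82 in the other Trrap-FBΔ cortices. Lzts2 in the Trrap-FBΔ striatum of mouse 61 had 21.4 CPM, against 19.2 to 19.4. Hif1an in the control cortex of mouse 55 had 74.5 CPM, against 66.7 to 67.7. Armh3 in the control striatum of mouse 63 had 18.04 CPM, against 20.7 to 21.2.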

How the results depend on the processing

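Of 882 alternatives for single genes, 801 kept direction and side of the threshold, 58 lost a call, 13 gained one and 10 turned in sign. This tally includes Kazald1 and Gm28578, whose rise chose the region, and is no test of that pair. With 0.5 Mb on each side, 4 of 10 tested neighbours were called for the cortex (1 higher) and 3 of 11 for the striatum (2 higher). With 2 Mb, 20 of 60 (12 higher) and 22 of 63 (14 higher) were called, that is 33.3% and 34.9%, beside 33.3% and 30.2% of all genes. Within 1 Mb these were 12 and 13, or 44.4% and 44.8%. Leaving out each library gave 10 to 12 calls in the cortex and 7 to 12 in the striatum. For the difference between tissues, against 0 calls, upper-quartile normalization gave 1, no filter 2, DESeq2 1 and leaving out each library 0 to 1. Over all genes the first 3 of these settings gave 87, 195 and 422 calls, against 85. For the tissue contrast in controls, against 8 calls, the replicate block by mouse gave 5, and leaving out each library 4 to 7. In Trrap-FBΔ mice, against 13 calls, the replicate block by mouse gave 14, and leaving out each library 13 to 15. The cause of these shifts was not tested. In controls the block fit left mice 55 and 65, with 1 tissue each, without weight.

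The values that turned in sign were these. Between tissues, Pdzd7 in controls had 0.073 with the replicate block and Dpcd in Trrap-FBΔ mice 0.018 with upper-quartile normalization. Leaving out each library, the log2 fold change of Btrc ranged from -0.0032 to 0.11 for the cortex, and for the striatum that of Lzts2 from -0.046 to 0.067 and that of Dpcd from -0.084 to 0.050. Likewise, the tissue difference in controls ranged from -0.16 to 0.70 for Gm28578 and from -0.0083 to 0.12 for Dpcd, and in Trrap-FBΔ mice from -0.028 to 0.14 for Lzts2. The pairing changed no call of a tested member other than that of Btrc between tissues. Few counts limit Kazald1, Gm28578, Tlx1 and Scd4.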
